A study of Homo sapiens with 6 samples.

Results

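The aminoacyl-tRNA synthetases and the proteins that hold them together were examined as 39 genes of the 62438 in the deposited table, taken from a list of symbols and matched through their Ensembl identifiers. They comprised 19 cytosolic synthetase genes, 16 mitochondrial synthetase genes, 3 scaffold genes of the multi-synthetase complex and TARS3, a second threonyl-tRNA synthetase gene close in sequence to TARS1. The genes were chosen with earlier results of these data known, but no measured value entered the rule. RNA-seq was performed on a breast cancer cell line labelled MDA-MB-453 after transfection with siRNA against N6AMT1 (si-N6AMT1, 3 libraries) or with a scrambled siRNA (si-CN, 3 libraries). Both groups received 10 nM siRNA with Lipofectamine RNAiMAX and were cultured for 48 h, and neither carried a further genetic change named in the labels. N6AMT1 is a methyltransferase studied both as a writer of DNA adenine methylation and, with TRMT112, as the enzyme that methylates a translation release factor. The comparison asks which transcripts change when it is depleted. The model is 1 cell line, the number of siRNA sequences against N6AMT1 was not given in the sources used here, and the libraries came from cells in triplicate that are not stated to be separate cultures. P-values therefore measure the spread between these samples, which may be technical.

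Aminoacyl-tRNA synthetases join each amino acid to the tRNA that decodes it, and so set the supply of charged tRNA for the ribosome. The cytosol and the mitochondrion mostly use enzymes from separate nuclear genes, named with the suffixes 1 and 2, and the enzymes fall into class I and class II by the fold of the catalytic domain. When a charged tRNA runs short, the kinase GCN2 (EIF2AK4) phosphorylates eIF2 and translation of the factor ATF4 rises, and many cytosolic synthetase genes are among the known targets of ATF4.

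The libraries held 19739247 to 21289740 estimated counts, and 17320 genes, including all 39 described here, passed the expression filter. N6AMT1 had 61, 72 and 60 counts in the si-N6AMT1 libraries and 136, 135 and 141 in the si-CN libraries (log2 fold change -1.10, SE 0.119, FDR = 3.65e-07 in edgeR's quasi-likelihood test with Benjamini-Hochberg adjustment, which is the test behind every FDR given here unless another is named). Several marker genes went against the labelled line, which is known as luminal. The luminal markers KRT19, GATA3 and SPDEF had low mean si-CN levels of 0.797, 1.92 and 0.253 TPM (estimated transcripts, as library-scaled counts corrected for the length of a reference transcript). ERBB2 (26.2 TPM), XBP1 (98.2), KRT8 (748) and KRT18 (726) were present, and the basal markers KRT5 (763), KRT14 (150) and TP63 (93.4) were high. The 3 basal markers were also higher after knockdown, with log2 fold changes of 0.11, 0.18 and 0.14, and their summed mean level was 1007 TPM in si-CN and 1095 in si-N6AMT1. KRT8 and KRT18 were higher as well (0.12 and 0.08). The part of these markers in the synthetase values was not tested. The line is therefore called the cells labelled MDA-MB-453. In bulk RNA, fewer cells expressing a gene and less of its RNA per cell cannot be told apart.

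In si-CN cells the cytosolic enzymes were the more abundant set. Their mean levels ran from 23.9 TPM (FARSB) to 321.4 TPM (TARS1), with a median over the 19 genes of 114.9 TPM, and TARS1 was followed by the glycyl enzyme GARS1 (279.8 ± 3.58 TPM, SD, n = 3), the lysyl enzyme KARS1 (220.3 ± 5.16) and the alanyl enzyme AARS1 (207.4 ± 2.52). The library ranges of TARS1 and GARS1 did not touch, whereas further down the order many neighbours differed by less than their spread. The mitochondrial enzymes had a median of 16.4 TPM over 16 genes, from the prolyl enzyme PARS2 at 4.02 ± 0.517 TPM to the isoleucyl enzyme IARS2 at 118.3 ± 3.19 TPM. IARS2 and the cysteinyl enzyme CARS2 (96.99 ± 2.73 TPM) stood well above the other mitochondrial genes, the next of which, HARS2, was at 38.3 ± 2.27 TPM. TARS3 was the lowest of all 39, at 3.71 ± 0.108 TPM.

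**Figure D1:**
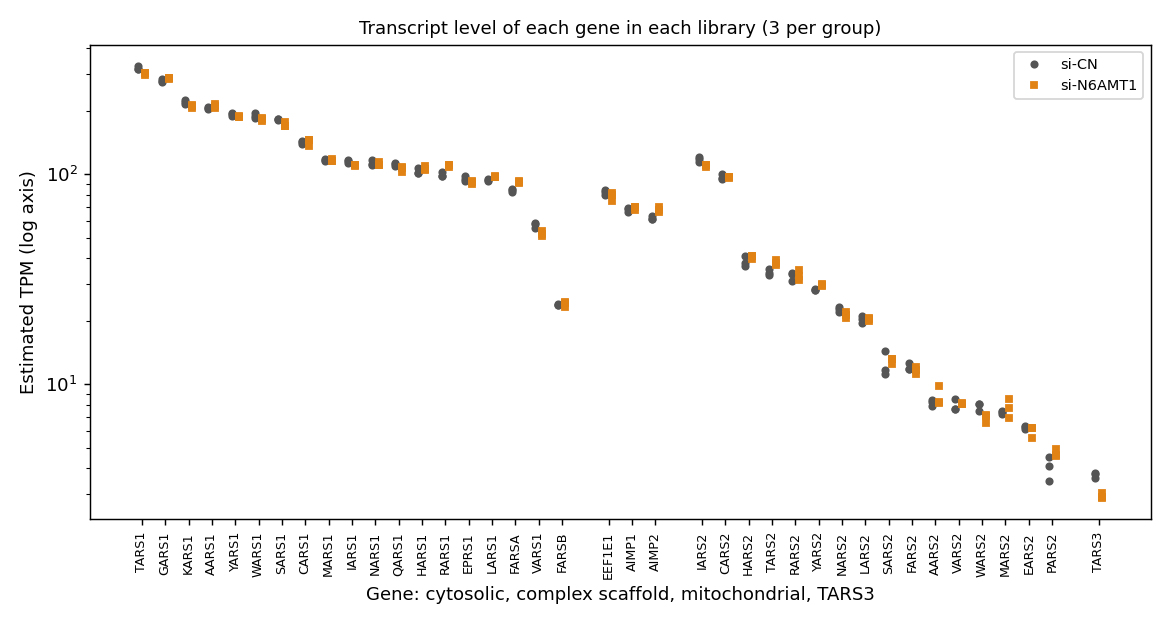
Estimated TPM on a log axis for each of the 39 genes in each library (circles si-CN, squares si-N6AMT1, 3 of each), ordered by si-CN level within the cytosolic, scaffold, mitochondrial and TARS3 groups. The cytosolic genes lie around a median of 114.9 TPM and the mitochondrial genes around 16.4 TPM, with IARS2 and CARS2 near the cytosolic median. HARS2, TARS2, RARS2 and YARS2 lie at the low end of the cytosolic range. The 2 groups of libraries lie close together for every gene.

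The phenylalanyl enzyme is a tetramer of equal numbers of FARSA and FARSB chains, yet in si-CN cells FARSA was at 83.9 TPM and FARSB at 23.9 TPM. Before division by length the genes were close, at 68.3 ± 0.190 and 72.7 ± 1.09 CPM (counts scaled by library size with TMM factors). The reference transcript used for FARSB is 6761 bases long, of which 4972 are 3′ UTR, so its TPM value depends on how much of that UTR these cells use, which was not tested.

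After N6AMT1 knockdown 5 of the 39 genes were lower and 4 were higher at FDR under 0.05, and 30 did not pass. Among all tested genes 11.5% were lower and 9.78% higher by the same rule, so the 39 genes were called at about the share of all tested genes. The shares among tested genes in the count ranges of the cytosolic and mitochondrial sets were higher and are given below. Their median log2 fold change was 0.00, as was that of all tested genes. The changes were small: 23 of the 39 genes had a fitted change within 5% of si-CN and 34 within 10%. The groups of libraries did not overlap for 10 genes that were lower and 8 that were higher with si-N6AMT1, where 18% and 16.8% of all tested genes showed the same.

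**Figure D2:**
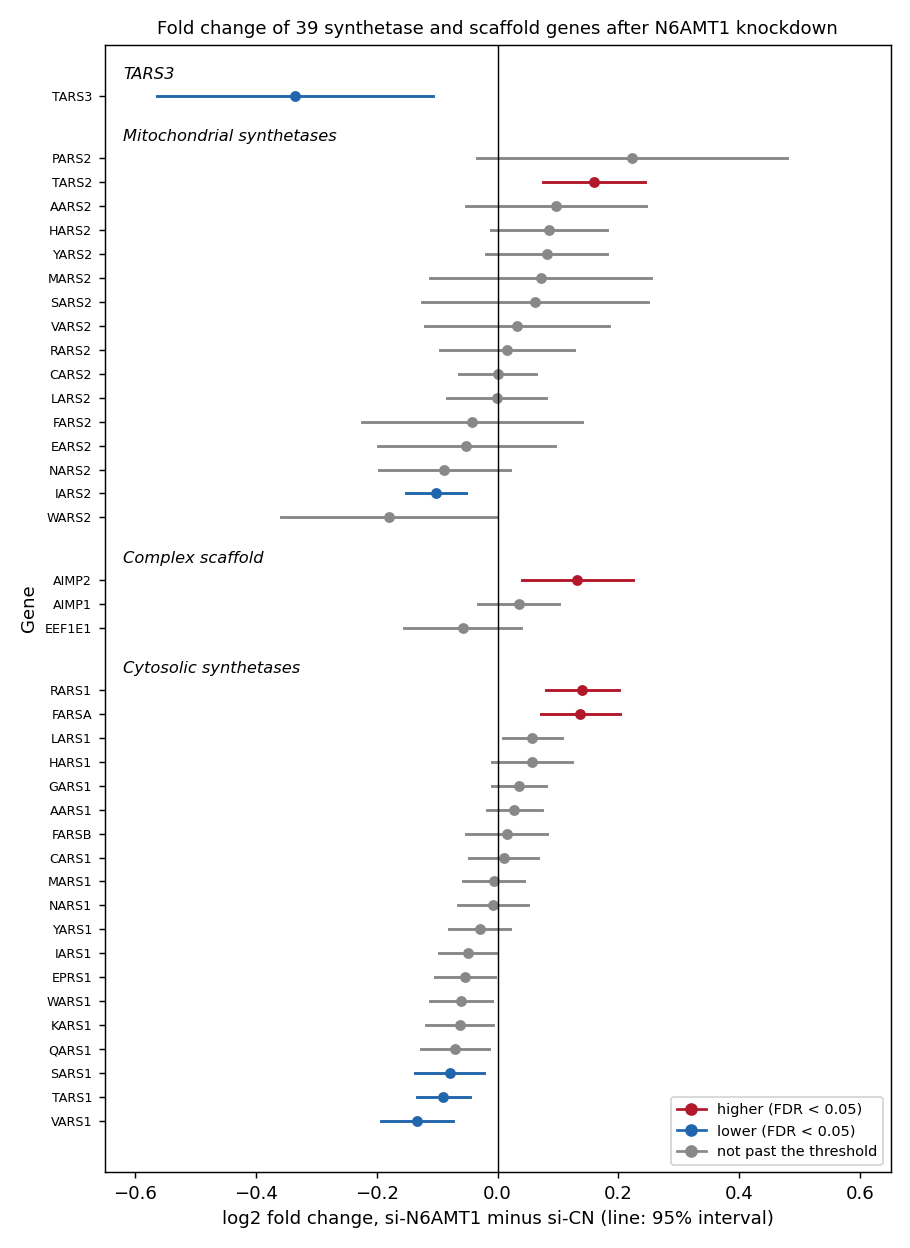
Log2 fold change of each gene (si-N6AMT1 minus si-CN, points) with its 95% interval (lines), from the edgeR fit over 17320 genes. Genes past FDR 0.05 are coloured, 4 higher in red and 5 lower in blue, and the cytosolic genes all lie between -0.13 and 0.14, whereas the intervals of rarer mitochondrial transcripts such as PARS2 are wider.

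Of the 19 cytosolic synthetases, 2 rose and 3 fell. The arginyl and phenylalanyl genes RARS1 and FARSA rose by 10.2% and 9.96%, while the valyl gene VARS1 fell by 8.85%, the threonyl gene TARS1 fell by 6.01% and the seryl gene SARS1 fell by 5.36%. The other 14 of the 19 did not pass the test. The median log2 fold change of the set was -0.01, and its counts summed to 3421 ± 23.3 CPM with knockdown and 3463 ± 12.8 CPM in the controls (SD, n = 3 each). The set is made of abundant genes, for which small changes are more readily called: of the 3022 tested genes with mean counts in its range, 26.9% were lower and 17.9% higher.

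RARS1 (ENSG00000113643, chromosome 5, 167913456 to 167946306 on GRCh37, plus strand), whose product charges arginine tRNA within the multi-synthetase complex, had 104.6, 106.1 and 104.1 CPM in the si-N6AMT1 libraries and 94.7, 97.7 and 93.4 in the si-CN libraries. Every knockdown library lay above every control library. The log2 fold change was 0.14 (SE 0.0288, FDR = 0.000968), and RARS1 was called higher under all 13 alternative analyses. VARS1 (ENSG00000204394, chromosome 6, 31745295 to 31763529, minus strand), the valyl enzyme that associates with elongation factor 1, had 97.9, 96.5 and 94.7 CPM in si-N6AMT1 and 103.9, 107.3 and 105.9 in si-CN. Here the order was the opposite, again without overlap. The log2 fold change was -0.13 (SE 0.0285, FDR = 0.00139), called under all 13 alternatives. The 2 genes differ in base composition, with 41.1% GC in the reference transcript of RARS1 and 61.7% in that of VARS1, and with a correction for GC content they stood at 0.18 and -0.19. The ratio of RARS1 to VARS1 counts, picked after the values were seen, was 1.07, 1.10 and 1.10 in si-N6AMT1 and 0.912, 0.911 and 0.881 in si-CN.

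FARSA (ENSG00000179115, chromosome 19, 13033293 to 13044851, minus strand), the catalytic subunit of the phenylalanyl enzyme, had 74.3, 74.9 and 76.2 CPM in si-N6AMT1 against 68.3, 68.2 and 68.6 in si-CN. The knockdown libraries were all higher, and the control libraries were almost identical. The log2 fold change was 0.14 (SE 0.0316, FDR = 0.00277). With a GC correction, added after the data had been seen, it was 0.09 with FDR = 0.0544, and FARSA was no longer called. Its partner subunit FARSB had 74.4, 74.5 and 71.6 CPM against 73.8, 72.8 and 71.6, so the groups overlapped, with a fold change of 1.01 (95% interval 0.965 to 1.06). The FARSA to FARSB ratio of counts was 0.999, 1.01 and 1.06 in si-N6AMT1 and 0.925, 0.937 and 0.957 in si-CN. The ratios did not overlap, and a two-sided exact permutation test gave p = 0.1, the smallest that 3 against 3 libraries allow.

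TARS1 (ENSG00000113407, chromosome 5, 33440802 to 33468196, plus strand), the cytosolic threonyl enzyme and the most abundant gene of the set, had 360.8, 362.1 and 365.5 CPM in si-N6AMT1 and 388.0, 380.3 and 389.7 in si-CN. The knockdown libraries were all lower. The log2 fold change was -0.09 (SE 0.0213, FDR = 0.00366). SARS1 (ENSG00000031698, chromosome 1, 109756540 to 109780804, plus strand) charges serine tRNA and also loads serine on the selenocysteine tRNA. It had 144.7, 147.2 and 153.5 CPM in si-N6AMT1 and 159.7, 154.5 and 156.5 in si-CN, so the groups were separated by only a narrow gap. The log2 fold change was -0.08 (SE 0.0271, FDR = 0.0397), and the call did not hold without si-N6AMT1 replicate 1 (FDR = 0.162), without si-N6AMT1 replicate 2 (0.122), without si-CN replicate 1 (0.128), without si-CN replicate 3 (0.0941) or with DESeq2 (0.126).

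Overlap with other annotated genes was checked, since reads from overlapping genes can be hard to assign. RARS1, TARS1, SARS1 and TARS2 overlapped no other gene with counts, and the genes overlapping FARSA, VARS1, IARS2 and TARS3 had at most 0.172% of their mean count. Annotated pseudogene copies of 13 of the 39 genes had at most 0.0818% of the count of their parent. Among genes that did not pass, EARS2 overlaps GGA2 and HARS2 overlaps ZMAT2 on the same strand, with 438% and 222% of their counts. On the opposite strand YARS2 overlaps DNM1L (387% of its count), WARS2 overlaps WARS2-AS1 (148%), HARS1 overlaps HARS2 (47.5%) and WDR55 (45.8%), CARS2 overlaps ING1 (45.1%) and KARS1 overlaps TERF2IP (44.4%). Since strand use in counting was not given, the values of these genes are less certain.

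**Figure D3:**
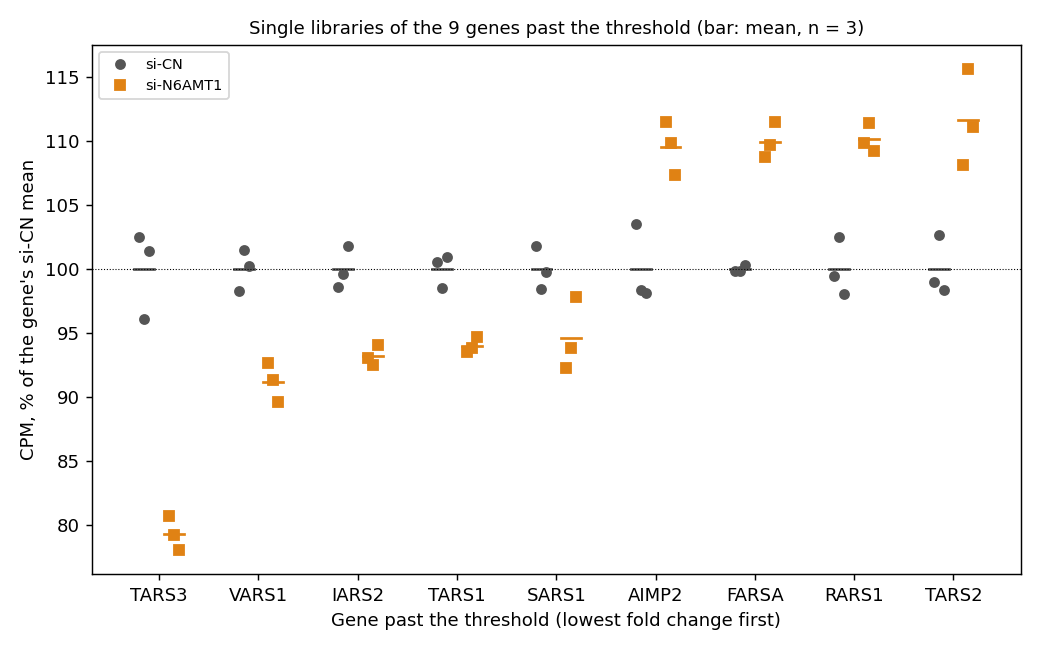
Values of the single libraries for the 9 genes past FDR 0.05, in CPM as a percentage of each gene's si-CN mean (circles si-CN, squares si-N6AMT1, bars the mean of 3). For all 9 genes the groups do not overlap, with the narrowest gap in SARS1 and the lowest relative level in TARS3.

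For the cytosolic genes that did not pass, the data bound the change closely. Over these 14 genes the 95% intervals of the fold change all lay between 0.916 and 1.09. GARS1 and AARS1 were among the most precisely measured. GARS1 had 311.1, 314.2 and 317.1 CPM in si-N6AMT1 and 307.0, 304.3 and 308.2 in si-CN, which did not overlap, with a fold interval of 0.994 to 1.06 (FDR = 0.281). AARS1 had 329.2, 321.5 and 329.3 CPM against 320.9, 322.3 and 318.3, which overlapped, with an interval of 0.988 to 1.05 (FDR = 0.418). The isoleucyl gene IARS1 had 222.4, 223.8 and 225.0 CPM against 230.4, 234.2 and 230.0. These libraries did not overlap and the log2 fold change was -0.05 (FDR = 0.134). The leucyl gene LARS1, whose product also reports leucine to the mTORC1 pathway, had 206.7, 210.2 and 210.7 CPM against 203.4, 198.4 and 201.3, again without overlap, with a log2 fold change of 0.06 and FDR = 0.0896. With the GC correction it was 0.09 with FDR = 0.00493, and the glutaminyl gene QARS1 went from -0.07 (FDR = 0.0677) to -0.09 (FDR = 0.0149). EPRS1, the fused glutamyl-prolyl enzyme, had 202.2, 198.1 and 202.6 CPM against 206.3, 206.1 and 213.1 (log2 fold change -0.05, FDR = 0.127). The tyrosyl gene YARS1 had 206.3, 208.1 and 207.5 against 214.8, 214.6 and 205.7, with overlap (-0.03, FDR = 0.445). The 11 cytosolic genes below an unadjusted p of 0.05 included the 5 that passed.

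In the multi-synthetase complex, a cytosolic particle that binds several of these enzymes on scaffold proteins, 2 of 10 listed genes passed the test, where 11.5% of all tested genes were lower and 9.78% higher. They were RARS1, described above, and the scaffold gene AIMP2, both higher, the second in 6 of 13 alternative analyses. The 7 synthetases of the complex (EPRS1, IARS1, LARS1, QARS1, MARS1, RARS1 and KARS1) had a median log2 fold change of -0.05, from -0.07 in QARS1 to 0.14 in RARS1. The 12 cytosolic genes outside it had a median of 0.00, with 3 lower and 1 higher. By class, 1 of 9 class I cytosolic genes was lower and 1 higher (VARS1 and RARS1), and 2 of 9 class II genes were lower and 1 higher (TARS1, SARS1 and FARSA). The fused EPRS1 was left out of this division.

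AIMP2 (ENSG00000106305, chromosome 7, 6048886 to 6063465, plus strand) had 37.1, 36.6 and 35.7 CPM in si-N6AMT1 and 34.5, 32.8 and 32.7 in si-CN. The groups did not overlap and the log2 fold change was 0.13 (SE 0.0441, FDR = 0.0354). The call was lost without si-N6AMT1 replicate 1 (0.0956) or 2 (0.0867), without si-CN replicate 2 (0.108) or 3 (0.124), with DESeq2 (0.176) and with no expression filter (0.0826). AIMP2 also overlaps, over 1588 bases on the opposite strand, the gene of the eIF2 kinase EIF2AK1, whose mean count was 596% of that of AIMP2, and whether the counting used strand was not given in the sources used here. The other scaffold genes did not pass. AIMP1 had 83.9, 87.6 and 87.9 CPM against 87.0, 81.8 and 84.4, and EEF1E1 had 34.9, 37.7 and 38.5 against 40.1, 37.1 and 38.4. Both overlapped between groups, with fold intervals of 0.978 to 1.07 and 0.899 to 1.03, and AIMP1 passed only with the GC correction (log2 fold change 0.09, FDR = 0.0397).

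Of the 16 mitochondrial synthetases, IARS2 fell, TARS2 rose and 14 did not pass. The set's median log2 fold change was 0.02, and its counts summed to 566.7 ± 3.73 CPM with knockdown and 570.4 ± 1.80 CPM in the controls (SD, n = 3 each). Of the 10517 tested genes with mean counts in its range, 15.2% were lower and 12.5% higher.

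IARS2 (ENSG00000067704, chromosome 1, 220267474 to 220321383, plus strand), the mitochondrial isoleucyl enzyme and the most abundant of the set, had 174.6, 173.6 and 176.6 CPM in si-N6AMT1 and 185.0, 186.9 and 191.1 in si-CN. Every knockdown library was below every control library. The log2 fold change was -0.10 (SE 0.0242, FDR = 0.00360), a fold change with a 95% interval of 0.900 to 0.965. TARS2 (ENSG00000143374, chromosome 1, 150459890 to 150480078, plus strand), the mitochondrial threonyl enzyme, had 45.2, 48.3 and 46.4 CPM in si-N6AMT1 and 41.4, 42.9 and 41.1 in si-CN. The knockdown libraries were all higher, with a log2 fold change of 0.16 (SE 0.0409, FDR = 0.00641). With DESeq2 the adjusted p of TARS2 was 0.0511.

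The 14 mitochondrial genes that did not pass were measured less precisely, since most are rare transcripts. Their 95% intervals together ran from 0.780-fold to 1.39-fold. The widest was that of PARS2, with 4.84, 5.24 and 4.83 CPM in si-N6AMT1 against 3.72, 4.32 and 4.71 in si-CN. These libraries did not overlap, yet the log2 fold change of 0.22 had an SE of 0.124 and FDR = 0.229. The tryptophanyl gene WARS2 had 8.17, 9.01 and 8.92 CPM against 9.52, 10.0 and 10.0, also without overlap (log2 fold change -0.18, SE 0.0859, FDR = 0.153). YARS2 was higher without overlap at 28.0, 28.3 and 28.7 against 27.3, 26.5 and 26.6 (0.08, FDR = 0.267), and the asparaginyl gene NARS2 lower at 24.77, 23.5 and 24.1 against 26.1, 26.1 and 24.85, a narrow gap (-0.09, FDR = 0.264). At this depth changes of these sizes were not distinguishable from the spread. CARS2 and the leucyl gene LARS2, with more counts, had fold intervals of 0.956 to 1.05 and 0.944 to 1.06. By class, 1 of 9 mitochondrial class I genes was lower and none higher, and of 7 class II genes none was lower and 1 was higher.

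TARS3 (ENSG00000185418, chromosome 15, 102193799 to 102264676, minus strand) had the largest fall among the genes that passed, from the lowest level. It had 93, 94 and 93 counts (4.69, 4.60 and 4.53 CPM) in si-N6AMT1 and 117, 110 and 125 counts (5.96, 5.59 and 5.89 CPM) in si-CN. The groups did not overlap and the log2 fold change was -0.33 (SE 0.110, FDR = 0.0328). The call held in 1 of the 6 fits that left out a library, without si-CN replicate 2 (FDR = 0.0494), and in the other fits the FDR was 0.0568, 0.0740 and 0.0853 without si-N6AMT1 replicates 1, 2 and 3 and 0.0882 and 0.0896 without si-CN replicates 1 and 3. DESeq2 gave 0.169, and the fit with no expression filter 0.0732. How many reads TARS3 could share with the similar and far more abundant TARS1 was not tested.

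The 3 threonyl genes thus did not move together: TARS1 and TARS3 fell and TARS2 rose. The ratio of TARS2 to TARS1 counts was 0.125, 0.134 and 0.127 in si-N6AMT1 and 0.107, 0.113 and 0.106 in si-CN, a change of 1.19-fold without overlap. The ratio of TARS3 to TARS1 was 0.0130, 0.0127 and 0.0124 against 0.0154, 0.0147 and 0.0151, a change of 0.844-fold, also without overlap. Each gave p = 0.1 in a two-sided exact permutation test, the floor of this design. For TARS2 to TARS1 this outcome was fixed by the separate values, since TARS2 was higher and TARS1 lower in every knockdown library. That ratio therefore adds no further result.

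Enzymes for the same amino acid in the cytosol and the mitochondrion could be set side by side in 17 pairs over 16 amino acids, EPRS1 standing against both EARS2 and PARS2 and FARS2 against both subunits of the cytosolic enzyme. The fold changes had the same sign in 7 pairs and opposite signs in 10. Many of these signs were not settled: CARS1, NARS1, CARS2, FARS2, LARS2, MARS2, RARS2 and VARS2 changed sign in at least 1 alternative analysis. Both genes were called in 1 pair, the threonyl pair, in opposite directions, and 1 gene was called in 5 pairs. RARS2 had 31.2, 35.8 and 33.4 CPM in si-N6AMT1 and 34.4, 30.9 and 33.9 in si-CN, overlapping, where RARS1 was higher. VARS2 had 13.0, 13.0 and 13.0 against 12.5, 13.6 and 12.1, overlapping, where VARS1 was lower. SARS2 had 11.3, 10.9 and 11.4 against 9.78, 12.4 and 10.0, and FARS2 had 8.42, 8.91 and 9.22 against 9.68, 8.89 and 8.82, both with overlap. The 95% intervals of the fold change were 0.936 to 1.09 for RARS2, 0.920 to 1.14 for VARS2, 0.917 to 1.19 for SARS2 and 0.856 to 1.10 for FARS2, and the difference between partners was not tested for these pairs. The histidyl genes HARS1 and HARS2 lie head to head, with gene models that share 108 bases, and neither passed. HARS1 had 91.5, 93.8 and 96.6 CPM against 89.6, 93.7 and 87.8, and HARS2 had 45.1, 45.9 and 44.3 against 45.9, 41.5 and 40.1. HARS2 was called only without si-CN replicate 1 (FDR = 0.0267), and the ratio of HARS2 to HARS1 overlapped between groups (exact permutation p = 0.8). In level, the cytosolic enzyme exceeded its mitochondrial partner by a median of 6.94-fold in si-CN TPM, from 0.971-fold for isoleucine to 25.4-fold for alanine.

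Promoter sequence was examined because cytosolic synthetases are known targets of ATF4, which binds as a dimer with C/EBP proteins to the amino acid response element. The 8 letters TGATGNAA were searched on both strands of RefSeq promoters (250 bases before to 50 after the start, GRCh38.p14), which were matched by symbol for 33 of the 39 genes. LARS1, VARS1, YARS1, AARS2, VARS2 and TARS3 were not matched. Among cytosolic genes 7 of 16 promoters (43.8%) held the letters: AARS1, CARS1, GARS1, IARS1, MARS1, NARS1 and TARS1. They were held by 0 of 3 scaffold promoters, by 1 of 14 mitochondrial promoters (YARS2), by 4.46% of all 27305 promoters and by 2.78% of the 11714 promoters of tested genes. In the lists described below, 6 of 19 amino acid transporter promoters (31.6%) and 4 of 20 ATF4 pathway promoters (20%) held them. The letters were thus not particular to synthetases and were absent from most listed ATF4 pathway promoters. The stricter TGATGCAA was in 6 of the cytosolic promoters and in 1.08% of all. Matches are given because 7 of 16 cytosolic and 1 of 14 mitochondrial promoters held the letters. They are shown for 6 cytosolic genes, with the asparagine synthetase gene ASNS, a standard ATF4 target, for comparison. Those of NARS1, also TGATGCAA, and of YARS2 are not shown. Capitals mark the 8 letters, with 8 flanking bases on each side, and each is read 5′ to 3′ on the strand that matches.
TARS1 (chr5:33440959-33440982, minus): ggaccagcTGATGCAAtcgaaagg
AARS1 (chr16:70289678-70289701, plus): aacttggcTGATGCAActgcgaga
CARS1 (chr11:3057410-3057433, plus): ctagaatcTGATGCAAccgccgcc
IARS1 (chr9:92293695-92293718, plus): cacggaggTGATGCAAcgcgctga
MARS1 (chr12:57488056-57488079, minus): tccctcgcTGATGCAAccggaacc
GARS1 (chr7:30594837-30594860, minus): tcggagcaTGATGAAAtcgccgcg
ASNS (chr7:97872461-97872484, minus): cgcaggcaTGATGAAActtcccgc
The first 5 share TGATGCAA with different flanks, whereas GARS1 and ASNS share TGATGAAA. A match of letters is a description and not a measured binding site. Of the 7 cytosolic genes with the letters, 1 was lower (TARS1) and 6 did not pass, and their log2 fold changes had a median of -0.01 and ran from -0.09 to 0.04. Of the 9 without them, 1 was lower (SARS1) and 2 were higher (RARS1 and FARSA), with a median of -0.05. Among all tested genes 11.5% were lower and 9.78% higher. The unmatched genes VARS1, which was lower, LARS1 and YARS1 are in neither group.

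The 3′ UTRs of the synthetases are short, and few hold the 7-base sequences TTCACAT or TCACATA, which were picked from earlier results of these data because lowered genes hold them more often. Of 13150 tested protein-coding genes with a 3′ UTR, 22.5% held at least 1 of them, and 28.4% of the holders were lower against 10.4% of the others. That difference restates how the sequences were picked and is not separate evidence. The holders also had longer 3′ UTRs, with a median of 3173 bases against 988 in the others, and the part of length was not tested. Of the 39 genes, 2 held them (5.13%): FARSB with 2 sites and the glutamyl gene EARS2 with 1. None of the 5 lowered genes did. The median 3′ UTR was 475 bases over the 39 genes and 1341 bases over all, and among the 5362 genes with a 3′ UTR no longer than the longest of the 5 lowered genes, 5.18% held a site. The sites are shown in capitals with their flanks on the transcribed strand (GRCh37, minus strand), because they are the only ones in the family.
EARS2 (chr16:23534166-23534188): gccaagcaTTCACATgaccgcaa
FARSB (chr2:223433235-223433257): gatcttttTTCACATtttaattt
FARSB (chr2:223433126-223433148): ctcagaagTCACATAgccaataa
Neither gene was called. EARS2 had 14.3, 14.7 and 13.1 CPM in si-N6AMT1 and 14.8, 14.2 and 14.6 in si-CN, which overlapped, with a log2 fold change of -0.05 (SE 0.0708).

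A shortage of charged tRNA is sensed through eIF2. Of 16 tested genes for eIF2, its exchange factor eIF2B, its kinases with the GCN2 regulators GCN1 and IMPACT, and its phosphatase partners, 4 were lower and 0 higher. The median log2 fold change was -0.01 and 7 of the 16 were above 0, and among all tested genes 11.5% were lower and 9.78% higher. EIF2AK4, the GCN2 kinase that binds uncharged tRNA, had 66.0, 60.7 and 62.6 CPM in si-N6AMT1 and 74.9, 69.6 and 72.9 in si-CN, without overlap (log2 fold change -0.20, SE 0.0377, FDR = 0.000405). PPP1R15A, which directs dephosphorylation of eIF2, fell by 0.18 on the log2 scale and the endoplasmic reticulum stress kinase EIF2AK3 fell by 0.19. The fourth, EIF2S3, a subunit of eIF2, fell by 0.08. These kinases are regulated by activity, which transcript counts do not measure.

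ATF4 mRNA had 337.8, 345.3 and 338.1 CPM in si-N6AMT1 and 343.4, 325.0 and 332.9 in si-CN, overlapping, with a log2 fold change of 0.03 (95% interval of the fold change 0.986 to 1.06, FDR = 0.449). Its level is set largely by translation, which was not measured. Of 27 listed ATF4 pathway genes 6 were higher and 4 lower, with a median of 0.00. Among all tested genes 9.78% were higher and 11.5% lower. The higher genes with the smallest FDR were SESN2 (0.42, FDR = 2.97e-07), an inhibitor of mTORC1, DDIT3 (0.21, FDR = 6.70e-05), a stress transcription factor, and GDF15 (0.29, FDR = 0.000171), a secreted stress cytokine. ASNS was also higher (0.11, FDR = 0.0272), a call that held in 2 of 6 fits with a library left out, where its FDR reached 0.171. The lower genes with the smallest FDR were ALDH18A1 of proline synthesis (-0.32, FDR = 1.76e-08), the transcription factor ATF5 (-0.38, FDR = 0.00338) and SHMT2 of mitochondrial serine and glycine metabolism (-0.14, FDR = 0.00381). DDIT3 overlaps the methionyl gene MARS1 on the opposite strand over 982 bases, with 51.5% of its mean count. MARS1 itself had 147.3, 146.6 and 146.3 CPM against 147.9, 148.5 and 145.9, with overlap (log2 fold change -0.01, FDR = 0.893).

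Among amino acid transporters 4 of 21 tested genes were lower and 4 higher, with a median of 0.00. The shares of all tested genes were 11.5% lower and 9.78% higher. The taurine transporter SLC6A6 (-0.32), the large neutral amino acid transporter SLC7A5 (-0.19) and the cationic amino acid transporter SLC7A1 (-0.10) were the lower genes with the smallest FDR, and the cystine transporter SLC7A11 (0.19), the glutamate transporter SLC1A3 (0.17) and the glutamine and alanine transporter SLC38A2 (0.11) the higher.

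Of 27 tested genes of tRNA processing and export, 1 was lower and 3 higher, with a median of 0.05. Over all tested genes the shares were 11.5% lower and 9.78% higher. The lower gene was XPO5 (-0.14), an exporter of microRNA precursors that also binds tRNA, and the higher genes were RPP25 (0.35), RPP30 (0.18) and RPP21 (0.18), protein subunits of RNase P, the enzyme that trims the tRNA leader. Of 12 genes that handle charged tRNA after the synthetases, the elongation factor 1 genes EEF1G (-0.12), EEF1B2 (-0.13) and EEF1A1 (-0.05) were lower. EEF1A1 kept its call in 1 of 6 fits with a library left out (FDR up to 0.126), and EEF1D, a further subunit of elongation factor 1, stood at 0.04 (FDR = 0.283) with overlapping libraries. EEF1G had 955.4, 998.9 and 979.3 CPM in si-N6AMT1 and 1093, 1050 and 1055 in si-CN, without overlap (SE 0.0220, FDR = 0.000210). PTRH2, a peptidyl-tRNA hydrolase, was higher (0.15, FDR = 0.0370), although its libraries overlapped and the call held in 2 of 6 fits with a library left out. RPP21, whose libraries did not overlap, also kept its call in only 2 of 6 such fits, with FDR up to 0.235. Of 6 mitochondrial partner genes, which complete the charging of glutamine tRNA (GATB, GATC and QRSL1), formylate the initiator methionyl-tRNA (MTFMT) or serve as elongation factors (TUFM and TSFM), none passed the edgeR test at FDR under 0.05 and 0 had an unadjusted p under 0.05. Over the 6 lists 16 of 109 tested genes were lower and 14 higher.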

How the data were processed

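RNA from 6 libraries was prepared by the authors with a stranded mRNA kit. The authors trimmed reads with Trim Galore and deposited estimated counts per gene from kallisto 0.46.0 (build hg19 in the submitters' processing notes). Whether strand was used in counting was not given in the sources used here. All 6 columns were used and 0 were left unused. Of 62438 gene identifiers 62149 were matched to a symbol and to the length of a reference transcript on GRCh37. Counts were rounded to whole numbers, filtered with filterByExpr at a minimum count of 10, scaled by TMM and fitted over 17320 genes with edgeR 4.0.16 (R 4.3.3) glmQLFit and glmQLFTest, without covariates. Calls used Benjamini-Hochberg FDR under 0.05. SE was the absolute log2 fold change over the square root of F, and intervals used a confidence level of 95%. The common biological coefficient of variation was 1.85%. TPM was computed from the counts and reference transcript lengths, so levels depend on the transcript chosen.

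At this depth 1 CPM corresponded to 19.7 to 21.3 counts. Chi-square per degree of freedom between libraries was 1.35 to 1.77 within groups and 6.97 to 7.92 between groups, so no 2 libraries were counted as 1. The procedure was tested on simulated data. Members and gene lists were chosen with earlier results of these data known. Values in every library were given for members past the threshold, for the 6 most precise members not past it and for both genes of a pair with a call. Outside the set, N6AMT1 and ATF4 and up to 3 genes per direction and list were named by FDR. ASNS, EIF2S3 and the library values of further members were added after their values were seen. Alternatives were RLE size factors, DESeq2 1.42.0, limma-voom (limma 3.58.1), no expression filter, a block for replicate number (alone or with a GC correction), each library left out, and, added after seeing the data, the GC correction alone. DESeq2 was also the tool of the study. 1 item among the marker genes is not reported here.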

Additional observations from a re-analysis of the deposited data

How the results depend on the processing

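Over 39 genes and 13 alternative analyses, 450 of 507 values kept their direction and their side of the threshold, 27 called values lost the call, 7 gained one and 23 changed sign. RARS1 and VARS1 kept their calls in all 13. No called gene changed sign. DESeq2 called 5 genes in place of 9, with 0 mitochondrial genes and 0 scaffold genes higher. With no expression filter 0 scaffold genes were higher, and with the GC correction 2 were. The GC correction moved the cytosolic median log2 fold change to -0.0209 and the mitochondrial median to 0.00361, and with the replicate block added these were -0.0210 and 0.00464, with 0 mitochondrial genes lower and 0 scaffold genes higher.

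With each library left out, the number of genes called ran from 6 to 9, the cytosolic genes lower from 2 to 4, the mitochondrial genes higher from 1 to 2, the scaffold genes higher from 0 to 1, the cytosolic median from -0.0239 to -0.00651, and the mitochondrial median from -0.000640 to 0.0253. HARS2 was gained without si-CN replicate 1 and WARS1 without si-CN replicate 2.

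The sign changes were in uncalled genes. With each library left out, the log2 fold change ran from -0.0104 to 0.0364 in CARS1, -0.0257 to 0.0121 in NARS1, -0.00917 to 0.0180 in CARS2, -0.0727 to 0.000681 in FARS2, -0.0191 to 0.0191 in LARS2, -0.0119 to 0.144 in MARS2, -0.0351 to 0.0632 in RARS2 and -0.00291 to 0.0797 in VARS2. With the GC correction CARS1, NARS1 and VARS2 were at -0.00263, 0.0268 and -0.0127, and with the block added at -0.00281, 0.0272 and -0.0129. CARS2 was at 0.000242 with DESeq2, 1.9e-05 with limma-voom and 0.000164 with the block. The cause of these changes was not tested.

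Replicate numbers did not pair the samples: deviations of same-numbered libraries correlated at -0.119 to 0.00878 over 8930 genes and those of other pairs at -0.0529 to 0.105. With the replicate number as a block 7 genes were called, 2 cytosolic genes were lower and 2 higher, 1 mitochondrial gene was lower and 1 higher, 0 scaffold genes were lower and 1 higher, 29 genes of the surrounding lists were called, and the medians were -0.00685 (cytosolic) and 0.0234 (mitochondrial). SARS1 (FDR = 0.0699) and TARS3 (0.0522) lost their calls. With the block and GC correction 6 genes were called, 4 of them among the 9, and the FDR of FARSA, TARS1, IARS2, AIMP2 and TARS3 was 0.0895, 0.109, 0.0632, 0.0570 and 0.0762.

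Depth limits the rare transcripts. The median standard error was 0.0621 over the mitochondrial genes and 0.0268 over the cytosolic genes, and TARS3 had 0.110.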
